A study of Mus musculus with 4 samples.

Results

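The 10 interferon-gamma inducible GTPase genes described here were followed across the 4 libraries of the series: Irgm1, Irgm2, Igtp, Iigp1, Ifi47 and Tgtp1 of the immunity-related GTPase family, and Gbp2, Gbp3, Gbp6 and Gbp7 of the guanylate-binding protein family. They were taken from a named list, by gene symbol, that was drawn up with earlier results of these data known. All 10 were found among the 32285 genes of the count matrices. The cells were mouse bone marrow cells carrying CD45.2 that were lineage negative, Sca1 positive and Kit positive (LSK), the compartment of blood stem cells and early progenitors, collected 10 weeks after transplantation. Each of 4 groups was 1 library: control, Mll3 deleted, Mll4 deleted, and Mll3/4 deleted, in which both were deleted and which is called double-labelled below. The alleles, the agent or Cre that deleted them and the number of mice per library were not given in the sources used here. Mll3 and Mll4 are the histone methyltransferases encoded by Kmt2c and Kmt2d, and the series asks what each does alone and together in blood stem cells. RNA and 6 surface proteins (CD150, CD48, CD201, CD135, CD117 and CD34) were counted in the same cells with droplet 3-prime chemistry. With 1 library per group no difference has a replicate check, so no p-value was computed and every interval below is a 95% interval that covers counting error only.

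Interferon-gamma binds the receptor formed by Ifngr1 and Ifngr2, which signals through the kinases Jak1 and Jak2 and leads to induction of the transcription factor Irf1. GAS and ISRE motifs in promoters are the elements through which interferons act on their target genes, and Irf factors bind the ISRE. The effector GTPases of the immunity-related family load onto the vacuoles of intracellular microbes, whereas the regulatory members Irgm1, Irgm2 and Igtp sit on the cell's own membranes and hold the effectors inactive. Guanylate-binding proteins are larger GTPases that coat microbial vacuoles and free bacteria. In blood stem cells, interferon-gamma is known to drive cells out of quiescence, and Irgm1 is known to limit that proliferation.

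Kept barcodes had at least 1000 detected genes and at most 10% mitochondrial unique molecular identifiers (UMIs, each standing for 1 captured transcript). Control kept 7274 cells, and the Mll3-labelled, Mll4-labelled and double-labelled libraries 6101, 4793 and 4748, with 50792614 to 120700343 UMIs per library. Median UMIs per cell were 14454, 15381, 21400 and 8920 in the same order, which is kept below wherever the 4 libraries are listed. Any pair of libraries shared 7 to 14 kept barcodes. Levels are counts per 1000000 UMIs of a library (CPM). Kmt2c was at 68.9, 35.3, 61.3 and 42.3 CPM, and Kmt2d at 24.6, 21.6, 22.6 and 25.4, so Kmt2d did not separate the libraries with an Mll4 label, and groups are therefore called by their labels. These counts come from the 3-prime end and can include message of an allele deleted further upstream. Kit (214.8, 216.0, 361.9 and 245.5 CPM) and Ly6a, which encodes Sca1 (93.4, 132.5, 118.7 and 255.1 CPM), were present in all 4 libraries, as the sort requires, but make-up differed. At least 3 of the 12 B-progenitor markers were detected in 99.6% of the double-labelled cells and in 2.54% of control cells, and at least 3 of the 10 stem cell markers in 2.80% against 81.8%. In the Mll4-labelled library at least 3 granulocyte-monocyte progenitor markers were detected in 79.8% of cells against 15.2% in control, with a summed level of 10272 against 1011 CPM, and stem cell markers in 35.6%. That library also carried macrophage markers at a summed 878.2 CPM against 11.7 to 25.8 in the others, and mast cell markers at 1644 against 1.85 to 22.9.

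On GRCm38 (GENCODE release 21), 5 members lie on chromosome 11: Irgm1 (48861968 to 48871683, minus strand), Tgtp1 (48985327 to 48994172, minus), Ifi47 (49076587 to 49096974, plus), Igtp (58199556 to 58207591, plus) and Irgm2 (58199618 to 58222782, plus). Gbp7, Gbp3 and Gbp2 lie on the plus strand of chromosome 3 (142530342 to 142550149, 142560026 to 142573209 and 142620602 to 142638008), and Gbp6 on the minus strand of chromosome 5 (105270702 to 105293698). UMI counts of some members are uncertain because genes share sequence or overlap. In the last 500 bases of the longest transcript, where 3-prime reads fall, all windows of 90 bases of Tgtp1 were also in Tgtp2, and 65.5% of those of Gbp6 were also in Gbp10 or Gm43302, while the other members shared none. The annotated gene bodies of Igtp and Irgm2 overlap on the same strand, that of Ifi47 overlaps Olfr56, and that of Tgtp1 overlaps Gm12185 on its strand and Olfr56 on the other.

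Promoters of 300 bases, from 250 before to 50 after the start, were matched for 8 of the 10 members in RefSeq (GRCm38.p6). Iigp1 and Gbp6 had no entry. They were searched on both strands for the GAS motif TTCNNNGAA and the ISRE motif (GAAA, any 2 letters, GAAA), whose matches may overlap. A GAS match was present in 4 members (Igtp, Irgm2, Tgtp1 and Gbp7) and an ISRE match in 7, all but Ifi47. Both were present in 4 of 8, against 0.454% of all 32851 promoters in the table, of which 8.30% held a GAS and 3.44% an ISRE match. The first 3 sequences below are shown because they share 1 arrangement, a GAS match followed after 2 bases by an ISRE match, and the last 2 because Gbp3 and Ifi47 departed most from the other members in the libraries. Capitals mark the matches.
Igtp, chr11:58199306-58199605, plus strand: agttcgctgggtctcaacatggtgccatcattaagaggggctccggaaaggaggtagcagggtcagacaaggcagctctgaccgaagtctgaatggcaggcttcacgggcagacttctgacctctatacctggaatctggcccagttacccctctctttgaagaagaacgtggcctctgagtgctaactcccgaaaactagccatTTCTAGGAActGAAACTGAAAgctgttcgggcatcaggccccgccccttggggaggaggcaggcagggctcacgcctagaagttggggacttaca
Irgm2, chr11:58214727-58215026, plus strand: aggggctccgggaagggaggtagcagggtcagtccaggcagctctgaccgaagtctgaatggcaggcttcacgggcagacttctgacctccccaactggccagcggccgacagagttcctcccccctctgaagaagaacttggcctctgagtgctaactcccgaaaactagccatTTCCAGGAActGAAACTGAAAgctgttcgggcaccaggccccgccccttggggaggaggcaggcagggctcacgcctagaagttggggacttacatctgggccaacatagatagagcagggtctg
Tgtp1, chr11:48992197-48992496, minus strand: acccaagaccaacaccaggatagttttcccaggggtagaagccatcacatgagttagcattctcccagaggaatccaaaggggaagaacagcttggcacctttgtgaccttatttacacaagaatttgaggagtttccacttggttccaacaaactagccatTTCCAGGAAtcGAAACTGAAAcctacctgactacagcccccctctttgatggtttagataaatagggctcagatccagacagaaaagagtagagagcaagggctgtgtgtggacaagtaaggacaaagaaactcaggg
Gbp3, chr3:142559794-142560093, plus strand: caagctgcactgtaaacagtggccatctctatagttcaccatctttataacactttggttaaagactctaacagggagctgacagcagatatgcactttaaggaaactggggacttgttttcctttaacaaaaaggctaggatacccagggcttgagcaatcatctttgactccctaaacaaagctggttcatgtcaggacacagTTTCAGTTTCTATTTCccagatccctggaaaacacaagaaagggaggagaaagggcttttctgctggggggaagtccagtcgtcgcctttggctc
Ifi47, chr11:49076337-49076636, plus strand: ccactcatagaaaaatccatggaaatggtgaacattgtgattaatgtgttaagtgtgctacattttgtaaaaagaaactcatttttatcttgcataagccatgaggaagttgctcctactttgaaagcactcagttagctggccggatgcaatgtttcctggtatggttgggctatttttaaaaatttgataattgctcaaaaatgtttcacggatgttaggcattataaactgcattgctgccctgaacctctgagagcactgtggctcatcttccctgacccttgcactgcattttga

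The GAS match of Igtp lay at -45 to -37 and its ISRE match at -34 to -25, counted from the start. In Irgm2 they lay at -75 to -67 and -64 to -55, and in Tgtp1 at -88 to -80 and -77 to -68. The Igtp and Irgm2 promoters, which belong to adjacent genes, were identical at 244 of 335 alignment columns (72.8%). In Gbp3, 2 ISRE matches overlap at -45 to -36 and -39 to -30, and a second annotated start of Gbp3 had no match. Irgm1 also held 2 overlapping ISRE matches (-30 to -21 and -24 to -15), Gbp2 held 1 (-59 to -50), and Gbp7 held 2 GAS matches (-106 to -98 and -87 to -79) and 1 ISRE match (-53 to -44). A match is a description of these letters, not a binding site.

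The regulatory GTPases differed in how far they departed from control. Ratios are log2 of a library over control after adding 0.5 UMIs to each count. Irgm1 was at 29.4, 40.3, 28.5 and 35.0, with log2 ratios of 0.45 (0.39 to 0.52), -0.05 (-0.12 to 0.02) and 0.25 (0.17 to 0.33). It was highest in the Mll3-labelled library, with the Mll4-labelled and control libraries within counting error of each other. Irgm2 was at 11.4, 28.0, 13.6 and 5.89, with log2 ratios of 1.30 (1.21 to 1.39), 0.26 (0.16 to 0.37) and -0.95 (-1.14 to -0.77). The Mll3-labelled library stood above the other 3 for this gene and the double-labelled library below them. Igtp was at 23.1, 57.0, 20.2 and 22.4, with log2 ratios of 1.30 (1.24 to 1.37), -0.19 (-0.27 to -0.12) and -0.05 (-0.15 to 0.05). For Igtp the Mll3-labelled library again stood alone, while the double-labelled library did not separate from control.

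Among the effector GTPases, Iigp1 had the widest range of levels of the 10 members between control and the Mll3-labelled library. Iigp1 was at 38.9 (37.8 to 40.0), 123.0 (120.9 to 125.1), 32.9 (31.9 to 33.9) and 18.6 (17.4 to 19.8) CPM, from 4640, 13023, 3972 and 944 UMIs. Its log2 ratios were 1.66 (1.61 to 1.71), -0.24 (-0.30 to -0.18) and -1.06 (-1.17 to -0.96), a 3.16-fold higher level in the Mll3-labelled and 0.478 of the control level in the double-labelled library. The order of the 4 libraries was therefore Mll3-labelled, control, Mll4-labelled and double-labelled, with no overlap of counting intervals. Ifi47 was at 72.3, 71.4, 61.7 and 31.4, with log2 ratios of -0.02 (-0.06 to 0.03), -0.23 (-0.27 to -0.18) and -1.20 (-1.28 to -1.13). Unlike the other 9 members, Ifi47 was not above control in the Mll3-labelled library. Tgtp1 was at 6.73, 9.16, 4.17 and 5.14, with log2 ratios of 0.44 (0.31 to 0.58), -0.69 (-0.86 to -0.53) and -0.39 (-0.60 to -0.19). These reads cannot be told apart from those of Tgtp2, which was at 15.1, 19.7, 18.2 and 11.03.

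The guanylate-binding proteins differed among themselves, with double-labelled ratios from -2.41 (Gbp3) to 0.74 (Gbp6). Gbp2 was at 30.0, 41.1, 33.1 and 36.0, with log2 ratios of 0.45 (0.39 to 0.52), 0.14 (0.08 to 0.21) and 0.26 (0.18 to 0.35). Gbp7 was at 78.6, 119.1, 55.0 and 89.2, with log2 ratios of 0.60 (0.56 to 0.64), -0.52 (-0.56 to -0.47) and 0.18 (0.13 to 0.23). Both were highest in the Mll3-labelled library, and Gbp7 was lowest in the Mll4-labelled one. Gbp6 was at 4.61, 13.1, 5.06 and 7.72, with log2 ratios of 1.51 (1.37 to 1.65), 0.14 (-0.03 to 0.30) and 0.74 (0.55 to 0.93), subject to the sequence it shares with Gbp10. Gbp3 was at 26.9 (25.9 to 27.8), 31.4 (30.3 to 32.5), 41.8 (40.7 to 43.0) and 5.06 (4.46 to 5.72), with log2 ratios of 0.22 (0.15 to 0.29), 0.64 (0.57 to 0.70) and -2.41 (-2.60 to -2.22). Gbp3 was thus highest in the Mll4-labelled and lowest in the double-labelled library, an order that no other member had. On chromosome 3, Gbp3 lies between Gbp7 and Gbp2, whose ratios in the double-labelled library were above 0.

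**Figure D1:**
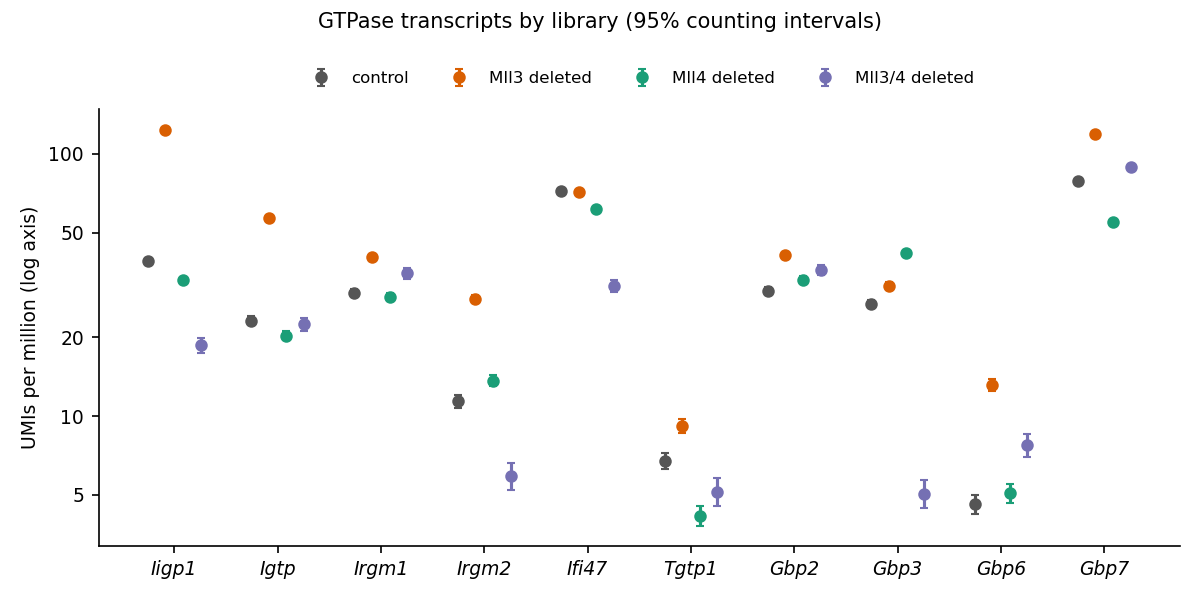
Level of each of the 10 GTPase transcripts (CPM, log axis) in the 4 libraries, 1 library per group, with the double-labelled library shown as Mll3/4 deleted. Points are library sums and bars are exact Poisson 95% intervals of counting error. The Mll3-labelled library is highest for 8 members, while Gbp3 is at 5.06 and Ifi47 at 31.4 in the double-labelled library.

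The members were then set against all 10123 genes whose mean over the libraries reached 5 CPM, a minimum that all 10 members met. In the Mll3-labelled library 4 of 10 members (Iigp1, Igtp, Irgm2 and Gbp6) were at least 2-fold higher than control, against 1.85% of all genes, and 0 were at least 2-fold lower, against 0.958%. In the Mll4-labelled library 0 members were past 2-fold in either direction, against 6.44% of all genes higher and 4.74% lower. In the double-labelled library 0 members were 2-fold higher, against 8.0%, and 3 (Iigp1, Ifi47 and Gbp3) were 2-fold lower, against 13.7%. With TMM scaling, which removes the shift of the typical gene, Iigp1 there was at -0.94 and 2 members were past 2-fold. The median log2 ratio of the members was 0.53, -0.12 and -0.22 in the 3 libraries, and that of all genes 0.10, -0.11 and -0.12. The same scaling took the medians of all genes to 0.00069, 0.0045 and -0.00079 and those of the members to 0.43, -0.012 and -0.10. In the Mll3-labelled library the member median was thus above that of all genes, for members chosen with earlier results of these data known. In the double-labelled library the members went both ways, with 4 intervals above 0 and 5 below, and in the Mll4-labelled library 3 were above and 5 below. Ratios were above 0 for 4 of 10 members in each, against 41.2% of all genes in the double-labelled and 40.6% in the Mll4-labelled library. How many of all genes had an interval off 0 was not counted, so the interval counts describe the members only.

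**Figure D2:**
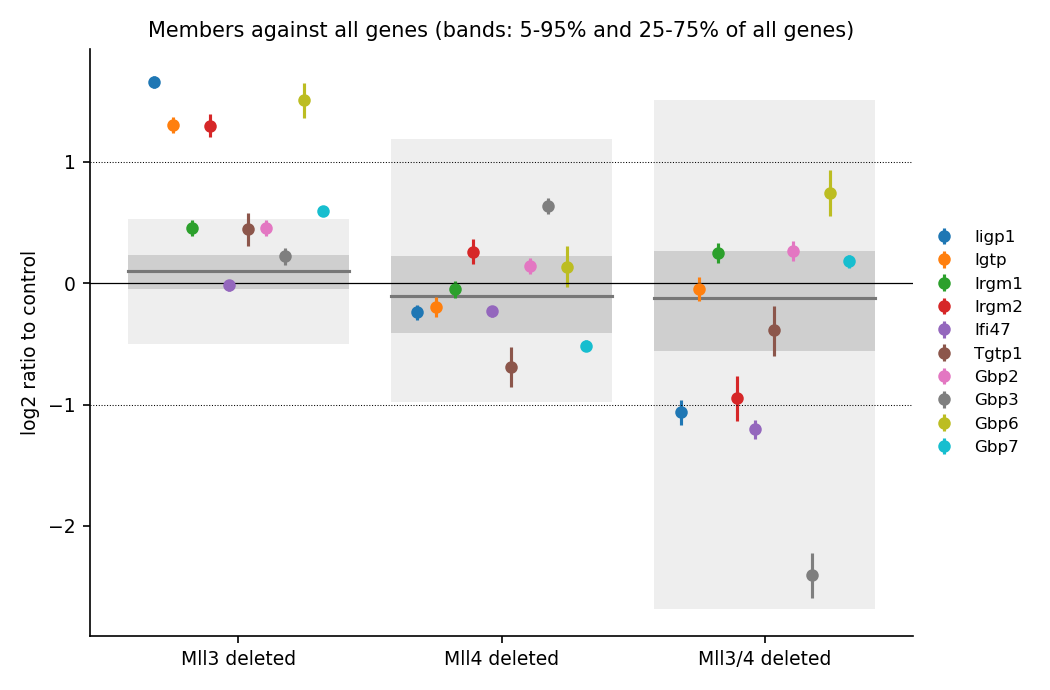
log2 ratio to control of each member (points, with 95% counting intervals) in the 3 deleted libraries, over the spread of all 10123 genes (light band 5 to 95%, dark band 25 to 75%, grey line the median). Dotted lines mark 2-fold. Iigp1, Gbp6, Igtp, Irgm2 and Gbp7 lie above the light band in the Mll3-labelled library, and no member lies outside it in the other 2 libraries.

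Processing changed the Mll4-labelled values most. In the Mll3-labelled library Iigp1, Igtp and Gbp6 stayed past 2-fold under each of the 11 alternatives tried for these ratios, with lowest log2 ratios of 1.28, 1.08 and 1.19, while Irgm2 reached 0.95. Ifi47, near 0 in that library, changed sign with the stricter cell filter (0.01). Against control, double-labelled Ifi47 (-1.27 to -1.08) and Gbp3 (-2.51 to -2.28) stayed at least 2-fold lower and Iigp1 lay between -1.16 and -0.82. Igtp in the double-labelled library (-0.11 to 0.08) and 6 members in the Mll4-labelled one (Iigp1, Igtp, Irgm1, Irgm2, Gbp2 and Gbp6) changed sign with the alternative. Tgtp1 (-0.91 to -0.46), Ifi47 (-0.43 to -0.06) and Gbp7 (-0.57 to -0.05) stayed below control in the Mll4-labelled library and Gbp3 (0.37 to 0.75) stayed above it.

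The double-labelled ratio was also set against the sum of the log2 ratios of the single-labelled libraries, all 3 of which share the control. The double ratio was below that sum for 9 members and above it for Gbp7 (0.10), and the share of all genes below it was not counted. B-progenitor markers were borne by 99.6% of the double-labelled cells, so these differences cannot be told apart from cell make-up. The difference was -3.27 for Gbp3, -2.51 for Irgm2 and -2.48 for Iigp1, the 3 genes furthest from the sum, and the median difference was -0.93 for the members and -0.15 for all genes. Igtp and Gbp6 were at -1.15 and -0.90, and Irgm1, Tgtp1 and Gbp2 at -0.15, -0.14 and -0.33.

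Related GTPase genes outside the list were 17, of which 15 were found by symbol and 10 met the minimum. In the Mll3-labelled library 4 of these 10 were at least 2-fold higher, against 1.85% of all genes, and 0 were 2-fold lower, against 0.958%. The median log2 ratio was 0.84. The 3 family genes that lie on chromosome 18, as Iigp1 does, were above control there: Gm4951 at 17.2 and 48.6, F830016B08Rik at 5.30 and 17.9, and Gm4841 at 6.27 and 11.7 CPM in control and the Mll3-labelled library. Next to Tgtp1 on chromosome 11, 9930111J21Rik2 went the other way, with 27.4 in control and 15.7 CPM. For the double-labelled library 3 of the 10 were higher and 3 lower, against 8.0% and 13.7% of all genes, with a median of -0.08. Gm4951 was at 2.68 there and Gbp5, the neighbour of Gbp7 on chromosome 3, at 6.14 against 15.8 in control, whereas Gbp9 was at 18.9 against 1.62 and Gbp4 at 7.44 against 1.84. Gbp4, Gbp8 and Gbp9 have overlapping annotated bodies, so how their reads were divided is uncertain. For the Mll4-labelled library 1 was higher (Gbp9, log2 1.24), against 6.44% of all genes, 0 were lower, against 4.74%, and the median was 0.06. Gbp9 met the minimum only through its double-labelled level, and Gbp4 only through its Mll3- and double-labelled levels. Gm4841 met it only through its Mll3-labelled level. Gbp8, at 4.02 CPM in control and 0.473 in the double-labelled library, did not meet it. Counts and medians of this list are therefore partly fixed by the minimum.

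Surface antibodies split the cells by CD150, which marks long-lived stem cells, and CD48, which marks more committed progenitors, with 1 threshold per antibody for all libraries on a centred log ratio. In control, every member was higher in CD150+CD48- cells (1850) than in CD150-CD48+ cells (3953), by a median of 0.93 on the log2 scale against 0.05 over all genes. Iigp1 was at 78.3 against 21.2 CPM (log2 1.89, 1.79 to 1.98), Gbp6 at 9.40 against 2.48 (1.92, 1.64 to 2.21), Irgm2 at 19.3 against 8.13 (1.25) and Igtp at 36.0 against 17.2 (1.07). Irgm1 (0.36), Gbp3 (0.34) and Ifi47 (0.24) differed least. The member medians of this contrast were 0.68, 0.47 and 0.15 in the libraries of the 3 deleted groups, against 0.07, 0.10 and 0.02 over all genes. Members at least 2-fold higher in CD150+CD48- cells numbered 5, 3, 2 and 0 in the 4 libraries, against 3.47%, 4.55%, 8.10% and 0.0525% of all genes. The double-labelled gates hold other cells than those of control: without centring its CD150+CD48- cells numbered 210 rather than 1921 of 4748.

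Within antibody groups the Mll3-labelled ratios kept their direction for most members. There, 8 members were higher than control in all 4 groups, against 40.3% of all genes, and 7 of them beyond counting error in each group, a count not made for all genes. The eighth, Tgtp1, was beyond it in CD150-CD48+ cells only (0.30, 0.05 to 0.55). Ifi47 was between -0.11 and -0.03, with an interval that included 0 in 3 groups, and Gbp3 between -0.01 and 0.22. Iigp1 in the Mll3-labelled library was at 160.0 against 78.3 in CD150+CD48- cells, 90.8 against 24.7 in CD150+CD48+ cells, 147.5 against 69.6 in CD150-CD48- cells and 62.6 against 21.2 in CD150-CD48+ cells. Its log2 ratios were 1.03 (0.96 to 1.10), 1.87 (1.63 to 2.13), 1.08 (0.97 to 1.19) and 1.56 (1.47 to 1.66), so the ratio was smaller in both CD48- groups, where control was already high. Members at least 2-fold higher numbered 1, 4, 3 and 3 in these groups, against 1.17%, 2.58%, 1.30% and 2.57% of genes, and member medians were 0.29, 0.66, 0.39 and 0.46. The share of CD150+CD48- cells itself was 25.4% in control and 47.98% in the Mll3-labelled library. Weighting the groups to control shares gave a member median of 0.40 in place of 0.53.

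Of the double-labelled ratios, those of Ifi47 and Gbp3 were below 0 beyond counting error in all 4 groups. Iigp1 and Irgm2 were below 0 in all 4 as well, but for Irgm2 the intervals of both CD48+ groups included 0 and for Iigp1 that of CD150+CD48+ cells did. Members below 0 in all 4 groups thus numbered 4 of 10, against 41.4% of all genes, so the count was near that share. Iigp1 was at 25 CPM in CD150+CD48- and 14.0 in CD150-CD48- cells, where control had 78.3 and 69.6, but at 20.9 in CD150+CD48+ and 15.1 in CD150-CD48+ cells, where control had 24.7 and 21.2. Gbp3 lay between 4.69 and 6.05 in every group of this library and between 23.0 and 31.8 in control. Members at least 2-fold lower numbered 4, 2, 4 and 1 in the groups CD150+CD48-, CD150+CD48+, CD150-CD48- and CD150-CD48+, against 14.2%, 12.7%, 15.5% and 13.0% of genes. Those at least 2-fold higher numbered 0, 1, 0 and 1, against 8.35%, 9.72%, 7.80% and 8.24% of genes. Member medians were -0.74, 0.04, -0.75 and 0.08, against -0.12, -0.11, -0.16 and -0.11 over all genes. Irgm1, by contrast, was level across these groups, from 34.4 to 36.9. In Mll4-labelled cells Iigp1 was above control beyond counting error in 3 groups (0.11 to 0.41) and level with it in CD150+CD48- cells (0.01), although its pooled ratio was below 0. Ifi47 was below control in all 4 groups (-0.57 to -0.13), as were 34.4% of all genes, and Tgtp1 was below it in 3 groups beyond counting error. This library held 7.99% CD150+CD48- and 80.5% CD150-CD48+ cells.

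**Figure D3:**
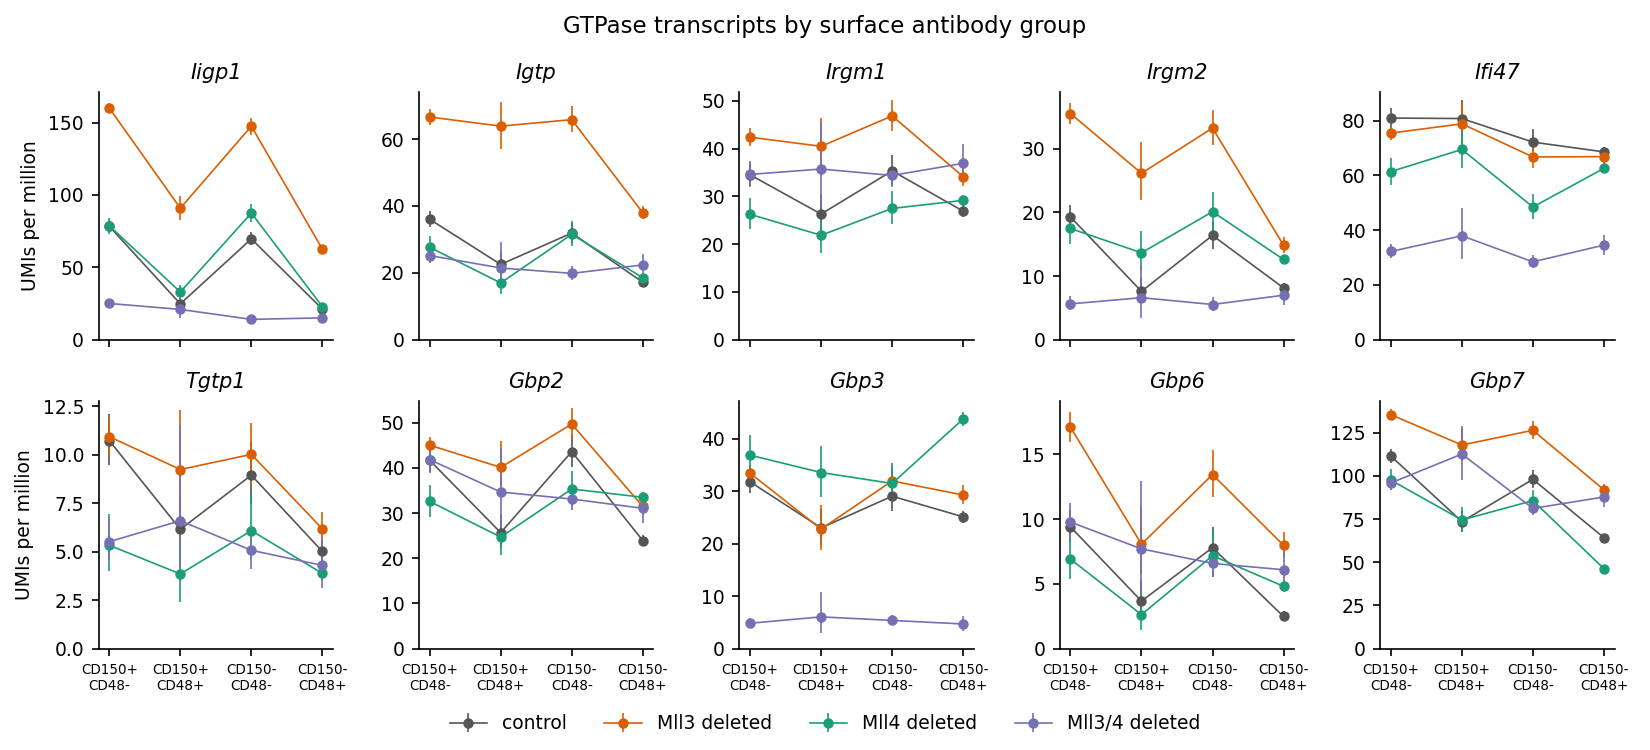
Level of each member (CPM, linear axes from 0) in the 4 CD150 and CD48 groups of each library. Points are sums over the cells of a group, bars are 95% counting intervals and lines join 1 library. Iigp1 is at 78.3 and 69.6 in the CD48- groups of control and at 25 and 14.0 in those of the double-labelled library.

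Counts per cell were compared after thinning each cell to 3000 UMIs, which left out 14, 17, 134 and 33 cells. An Iigp1 UMI was then found in 10.4% (9.71 to 11.1), 22.2% (21.2 to 23.3), 7.53% (6.79 to 8.33) and 5.01% (4.40 to 5.67) of cells, and before thinning in 30.5%, 48.8%, 21.9% and 9.48%. At least 3 of the 10 members were found in 6.75% (6.18 to 7.35), 15.7% (14.8 to 16.7), 7.56% (6.81 to 8.35) and 4.28% (3.72 to 4.90) of cells, and before thinning in 63.3%, 70.8%, 60.02% and 26.4%. As a low reference, control cells with at least 3 granulocyte-monocyte progenitor markers (median 22447 UMIs) reached 2.35%, and those with stem cell markers (median 14514) 7.39%. Thus more cells of the Mll3-labelled library carried several members at once than in each of the other 3 libraries, beyond counting error. Within CD150+CD48- cells the shares with 3 or more members were 12.1%, 19.8%, 9.52% and 4.35%, and within CD150-CD48+ cells 3.78%, 9.0%, 7.26% and 3.89%.

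**Figure D4:**
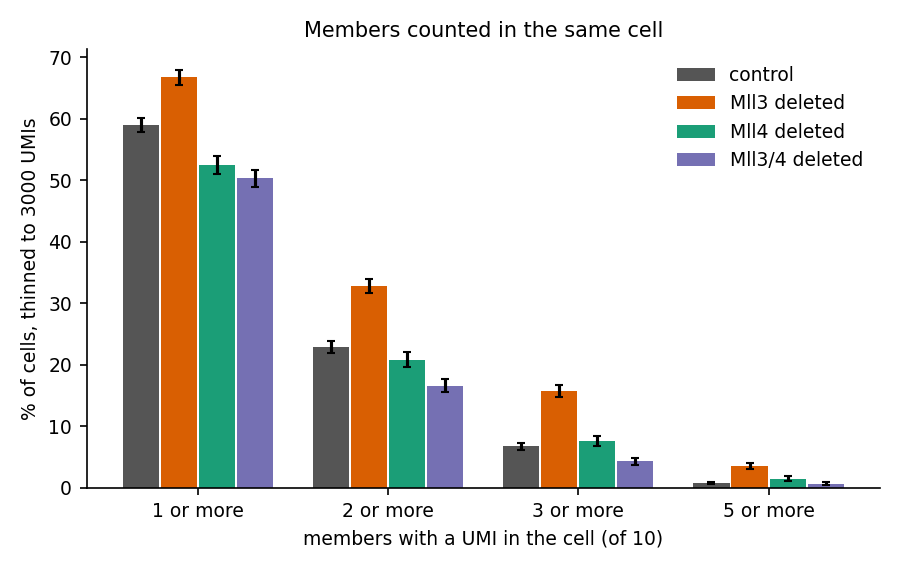
Share of cells (%, thinned to 3000 UMIs) with a UMI of at least 1, 2, 3 or 5 of the 10 members, by library. Bars start at 0 and error bars are exact binomial 95% intervals. For 3 or more members the Mll3-labelled library is at 15.7% and the others between 4.28% and 7.56%.

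The members were read against Irgm1 cell by cell. The share of thinned cells with a UMI was higher in cells with an Irgm1 UMI than in cells without one for 9, 9, 9 and 8 of the 9 other members in the 4 libraries. Counting intervals were apart for 5, 9, 8 and 4 of them. Genes outside the list were not read this way, so whether these counts are particular to the members was not tested. Iigp1 was found in 39.7% (36.0 to 43.5) of Mll3-labelled cells with Irgm1 and in 19.97% (18.9 to 21.1) of those without, and in control in 17.2% (14.3 to 20.4) and 9.77% (9.07 to 10.5). In the double-labelled library Gbp3 went the other way, with 0.413% and 1.39% and overlapping intervals. The 10% of cells with most member UMIs held 39.3%, 43.4%, 47.3% and 43.2% of them after thinning.

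Because cell make-up differed, member levels were also read in cells that carried at least 3 markers of a type, which is a range of cells and not a cell type. In stem cell marker-bearing cells the Mll3-labelled library was above control for 9 members, against 68.2% of all genes, with a median log2 ratio of 0.52 against 0.10 over all genes, and Iigp1 was at 135.3 against 43.2 CPM. In granulocyte-monocyte marker-bearing cells 9 members were above control, against 68.2% of all genes, with a median of 0.76 against 0.11 and Iigp1 at 58.3 against 12.0. In B-progenitor marker-bearing cells (419 and 185) 9 were above control, against 58.6% of all genes, with a median of 0.60 against 0.08 and Iigp1 at 48.4 (n = 472 UMIs) against 17.7. The medians in cells bearing macrophage, dendritic, mature B, and erythroid or megakaryocyte markers were 0.59, 1.06, 0.87 and 0.32, against 0.16, 0.12, 0.15 and 0.07 over all genes. In the 131 and 75 cells bearing T, natural killer or innate lymphoid markers the median was 0.01, with 5 members above control against 51.5% of all genes. Iigp1 (0.87, 0.20 to 1.66), Igtp (0.68, 0.04 to 1.42) and Gbp7 (0.41, 0.05 to 0.78) were above control there beyond counting error, and Tgtp1 below it (-1.13, -2.24 to -0.01).

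For the double-labelled library, of which 4727 of 4748 cells bore B-progenitor markers, the control cells bearing the same markers gave other ratios than the pooled ones. Iigp1 was at 18.5 in its B-progenitor marker-bearing cells and 17.7 in those of control (log2 0.05, -0.28 to 0.42), and Irgm2 at 5.87 and 5.98 (-0.05, -0.62 to 0.62). Neither differed beyond counting error in this range of cells, while both were lower than control when all cells were pooled. Gbp3 at 4.94 against 22.0 (-2.16, -2.51 to -1.80) and Ifi47 at 31.1 against 61.3 (-0.98, -1.17 to -0.78) were lower in these cells as well. Higher beyond counting error were Gbp2 at 36.3 against 14.1 (1.35, 0.99 to 1.76), Igtp at 22.5 against 12.0 (0.90), Gbp7 at 89.4 against 62.5 (0.51), Irgm1 at 35.3 against 24.9 (0.50) and, narrowly, Tgtp1 (0.78, 0.003 to 1.80). All genes had a median of 0.04 in this comparison, and the cells differed in depth, with medians of 8909 and 20984 UMIs. Against the B-progenitor marker-bearing cells of the Mll3-labelled library, 7 members of the double-labelled cells were lower beyond counting error: Gbp3 (-2.02), Iigp1 (-1.39, -1.55 to -1.23), Ifi47 (-1.04), Gbp6 (-0.99), Irgm2 (-0.93), Igtp (-0.60) and Gbp7 (-0.11). Gbp2 (0.65) and Irgm1 (0.19) were higher, and all genes had a median of -0.03, with 48.1% of them above 0. The 133 double-labelled cells bearing stem cell markers differed from those of control in another way. Iigp1 (-1.51, -2.02 to -1.08, 40 UMIs), Irgm2 (-1.39, -2.40 to -0.64, 12 UMIs) and Igtp (-1.15, -1.76 to -0.65, 29 UMIs) were lower there. The member median was -0.91 against -0.08 over all genes, with 6 members below control beyond counting error.

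In the Mll4-labelled library the summed level of the 10 members was 629.6 CPM in the 447 cells bearing T, natural killer or innate lymphoid markers, and 23.9% of them had 3 or more members after thinning. It was 332.7 in stem cell marker-bearing, 323.4 in macrophage marker-bearing and 244.7 in mast cell marker-bearing cells. Iigp1 was at 121.0, 53.0, 26.8 and 17.6 in these 4 ranges, and Gbp3 at 25.4, 35.6, 52.4 and 42.4, so these 2 genes were ordered almost oppositely across them. Ifng itself had 0, 0, 18 and 5 UMIs in the 4 libraries. A count of 0 allows up to 0.0251 CPM in control and 0.0283 in the Mll3-labelled library. Leaving out the cells that bore T or innate lymphoid, macrophage or mast markers of a narrower set, 44.7% of the Mll4-labelled cells, gave a member median of -0.39 in place of -0.12. The median of all genes went to -0.14 from -0.11. This narrower exclusion was added after the data were seen. The planned, wider exclusion left out 86.9% of these cells and moved the member median up instead, as given at the end.

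The pathway upstream of the GTPases was near control in the Mll3-labelled library. Of 13 genes of receptor and signalling, 0 were past 2-fold in either direction, against 1.85% of all genes higher and 0.958% lower. The median log2 ratio was -0.07. The induced factor Irf1 was at 53.9, 65.8, 44.9 and 20.003 CPM in the 4 libraries, and the feedback inhibitor Socs1 at 9.60, 14.7, 6.85 and 6.89. Socs1 (log2 0.62), Irf8 (0.52) and Irf1 (0.29) were above control in the Mll3-labelled library, while the receptor genes Ifngr1 (-0.08) and Ifngr2 (-0.32) were not above control. Of these genes in the double-labelled library 1 was 2-fold higher and 5 were lower, against 8.0% and 13.7% of all genes, with a median of -0.48. There Ifngr1 was at 32.9 against 73.6 in control, Ifngr2 at 70.0 against 19.8, and the phosphatase Ptpn6 at 6.71 against 101.6. Mll4-labelled cells had 2 higher, Ifngr1 (log2 1.53) and the myeloid factor Irf8 (2.19), and 0 were lower, against 6.44% and 4.74% of all genes.

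Of 4 further interferon-related lists, class II presentation had a higher median than the GTPases in the Mll3-labelled library and the other 3 had lower ones. Class I antigen presentation (12 genes) had 0 past 2-fold and a median of 0.28, with Psmb8, an immunoproteasome subunit, at 703.2 and 877.0 CPM in control and the Mll3-labelled library. The type I response (29 genes) had 0 past 2-fold and a median of 0.15, with the antiviral gene Ifitm3 at 615.1 and 556.9, and 10 other interferon-gamma targets had 0 and 0.18. Class II presentation (7 genes) had 1 past 2-fold (H2-Eb1, log2 1.01) and a median of 0.68, with Cd74, the invariant chain, at 164.8 and 322.8. Of all genes, 1.85% were 2-fold higher and 0.958% lower in the Mll3-labelled library. In the Mll4-labelled library the class II median was 2.36 (5 of 7 higher), beside class I at -0.12, other targets at 0.20 (3 higher) and type I at -0.26 (3 higher). Ciita of class II was at 4.58 CPM in control and 21.7 in this library, Cxcl9 of the other targets at 1.97 and 17.6. Ifi204 of type I was at 1.08 and 27.5. Each met the minimum only through its Mll4-labelled level, so counts and medians of these lists are partly fixed by the minimum. In the double-labelled library the class II median was -3.51 (6 of 7 lower), class I -0.01 (1 lower), other targets -0.33 (2 higher, 3 lower) and type I 0.13 (5 higher, 7 lower). Of all genes, 6.44% were 2-fold higher and 4.74% lower in the Mll4-labelled library, and 8.0% and 13.7% in the double-labelled one. Cd74 was at 1237 and 14.5 in these 2 libraries, which also differed in macrophage markers as given above, and the part of those cells in the class II values was not tested.

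**Figure D5:**
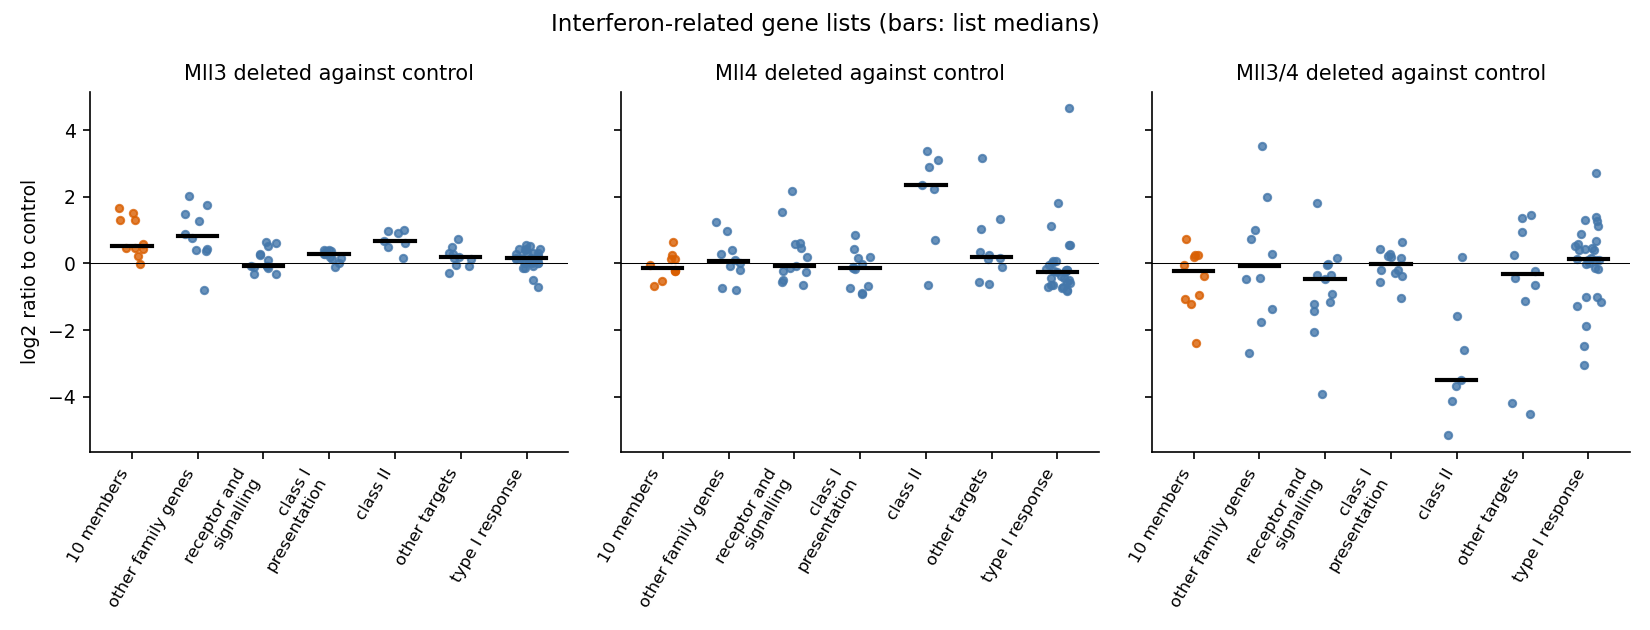
log2 ratio to control of single genes (points, spread sideways for visibility) in 7 lists for the 3 deleted libraries, with list medians as bars. The GTPase members have a median of 0.53 in the Mll3-labelled library, where receptor and signalling genes are at -0.07, and class II genes span the widest distance between libraries, with medians of 0.68, 2.36 and -3.51.

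Likeness was measured over the 16 sums of 4 libraries by 4 antibody groups, as Pearson's r between each gene and the mean scaled level of the members, among the 6125 genes whose mean reached 20 CPM. Sums of 1 library share preparation and depth, so r is a description. Of the members, each set against the mean of the others, Igtp (0.94), Iigp1 (0.91), Tgtp1 (0.89) and Irgm2 (0.86) followed the set most closely, and Irgm1 (0.59), Ifi47 (0.40) and Gbp3 (0.33) least. The 5 genes outside the list with the highest r were Laptm4a (0.90), Tsnax (0.89), Tex264 (0.89), Ccs (0.88) and C1qtnf12 (0.88). Their log2 ratios in the Mll3-labelled library lay between 0.17 (Laptm4a) and 0.58 (C1qtnf12), below those of Igtp, Iigp1 and Irgm2.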

How the data were processed

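Deposited values were raw UMI counts per gene and counts of 6 antibodies per cell barcode, stored as 4 matrices. Per the submitters' processing notes, Cell Ranger 6.1.1 and mm10 were used. The filter that chose the deposited barcodes (7682, 6560, 7702 and 5136) is not given in the sources used here.

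The members and gene lists were chosen with earlier results of these data known. Doublets were not removed: Scrublet called 0.0412%, 0.0492%, 3.57% and 0.0211% of kept cells, too few to have worked in 3 libraries, and removing the highest scores (423, 298, 184 and 180 cells) was an alternative. UMIs were summed over kept cells and scaled to 1000000. Intervals at 95% were exact Poisson for sums, exact conditional binomial for ratios and Clopper-Pearson for shares of cells. Antibody counts were split at the crossing of 2 Gaussian components fitted over all libraries. All 10 members are named. Of the related-GTPase and signalling lists any gene past the minimum could be named, and of other lists the 3 genes with the highest mean and the extreme ratios. The calculations were checked on simulated libraries, gates and thinned cells. Alternatives were TMM (edgeR 4.0.16) and median-of-ratios scaling (DESeq2 1.42.0), totals without mitochondrial and ribosomal protein genes, looser and stricter cell filters, doublet scores, equal weight per cell, groups weighted to control shares, 2 exclusions of marker-bearing cells (1 added after the data were seen), 1 UMI added, other minimums, folds, thinning depths and antibody thresholds. Analyses used Python 3.11.15, numpy 2.4.6, scipy 1.17.1, scikit-learn 1.9.0 and scanpy 1.11.5.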

Additional observations from a re-analysis of the deposited data

How the results depend on the processing

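No paired analysis was possible because each group had 1 library, and for the same reason no replicate could be left out. The member median in the Mll3-labelled library (0.53) moved to 0.43 with TMM and with median-of-ratios scaling, 0.44 without mitochondrial and ribosomal protein genes, 0.65 with the stricter cell filter, 0.40 with antibody groups weighted to control shares and 0.45 with a minimum of 20 CPM, which also left 2 members past 2-fold in place of 4. The Mll4-labelled median (-0.12) moved to -0.012, -0.031, 0.10 (stricter filter), 0.22 (equal weight per cell), 0.027 (weighted groups), 0.0037 (without marker-bearing cells) and -0.39 (narrower markers), so its sign depended on the setting. A fold of 1.5 gave 1 member higher and 1 lower there, against 12.6% and 15.3% of all genes. It gave 5 higher and 0 lower in the Mll3-labelled library, against 4.33% and 3.95%, and 1 higher and 4 lower in the double-labelled library, against 13.7% and 24.1%. The double-labelled median (-0.22) moved to -0.047 with a minimum of 20. The double library against the sum of the single ones (-0.93) moved to -1.12 with equal cell weight and -0.47 without cells of the narrower markers. The share of cells with 3 or more members depended on depth: 16.3%, 27.8%, 15.8% and 10.1% at 5000 UMIs, and 63.3%, 70.8%, 60.02% and 26.4% without thinning. At the reported setting, 18.6%, 34.4% and 41.4% of all genes were below control in all 4 antibody groups of the 3 deleted libraries. The shares above control in all 4 were 40.3%, 20.9% and 26.5%. Of members lower than control in all 4 antibody groups, the Mll3-labelled count went from 1 to 0 without marker-bearing cells and the Mll4-labelled count from 2 to 5 with the narrower exclusion. Members higher in all 4 went from 8 to 9 in the Mll3-labelled library under each of the 4 alternatives tried. They went from 2 to 1 in the Mll4-labelled library without centring, with thresholds per library and with the narrower exclusion, from 2 to 3 without marker-bearing cells, and from 0 to 1 in the double-labelled library without centring. The cause of these shifts was not tested. Of the other values of single members under an alternative, 214 stayed within counting error of those reported and 116 moved beyond it.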
